A study of Mus musculus with 12 samples.

Results

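The transcripts of 10 cytokine genes were followed in mouse Th9 cells: *Il9*, *Il4*, *Il5*, *Il13*, *Il3*, *Csf2*, *Il10*, *Il2*, *Il21*, and *Il24*. The genes were chosen by name, as the 10 of 32051 genes in the table that bear these symbols. Naive CD4+ T cells from the spleens of C57BL/6J mice were stimulated through CD3 and CD28 and polarized with 10 ng/mL IL-4, 1 ng/mL TGF-β, and antibodies that neutralize IL-12 and IFN-γ. The cultures received DMSO, the vehicle, or 10 μM EpA (endomelipeptide A), a fungus-derived cyclic lipopeptide, or 5 μM fatostatin, or EpA and fatostatin together. The study lists fatostatin as an SREBP inhibitor and describes it as an inhibitor of SREBP1. RNA was taken on day 4 and sequenced in bulk from 3 libraries in each of the 4 groups. The labels number the replicates without saying whether they were separate cultures or animals, so p-values measure the spread between these libraries, which may be technical. All groups share the exogenous IL-4, and every result is a transcript level, not a secreted protein.

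Th9 cells are CD4+ T cells that make IL-9, a growth factor for mast cells and a regulator of mucosal and antitumor responses. They arise when IL-4, which signals through STAT6, acts together with TGF-β, and they stand close to Th2 cells, which make IL-4, IL-5, and IL-13. The genes of IL-4, IL-5, and IL-13 form the type 2 cytokine cluster, in which *Rad50* holds the locus control region, whereas the genes of IL-9 and IL-10 lie on other chromosomes.

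On GRCm38, with GENCODE M21 gene boundaries, 5 of the 10 genes lay on chromosome 11. *Il4* (ENSMUSG00000000869) spanned chr11:53602982-53618669, *Il13* (ENSMUSG00000020383) chr11:53631324-53634702, and *Il5* (ENSMUSG00000036117) chr11:53720794-53725106. *Il4* and *Il13* were 12654 bp apart, and *Rad50* lay between *Il13* and *Il5*. Farther along, *Csf2* (ENSMUSG00000018916) spanned chr11:54247271-54249667 and *Il3* (ENSMUSG00000018914) chr11:54265303-54267277. *Il9* (ENSMUSG00000021538) spanned chr13:56479277-56482246. *Il24* (ENSMUSG00000026420, chr1:130882074-130887454) and *Il10* (ENSMUSG00000016529, chr1:131019845-131024974) were 132390 bp apart, with *Il20* and *Il19* between them. *Il2* (ENSMUSG00000027720, chr3:37120523-37125959) and *Il21* (ENSMUSG00000027718, chr3:37222759-37232636) shared chromosome 3. *Il5*, *Csf2*, and *Il21* each overlap an antisense gene, and *Il2* overlaps *Adad1* on the opposite strand. Whether strand was used in counting is not stated, so reads of these pairs cannot be told apart.

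The 250 bases before the RefSeq start of *Il9*, *Il21*, *Il13*, and *Il4* are shown because the transcripts of the first 3 genes were higher with EpA, as described below, whereas *Il4* was not. They are written 5′ to 3′ on the strand of the gene (the minus strand for each) from GRCm38.p6. Capitals mark matches, on either strand, to the STAT letters (TTC and GAA with a gap of 3 or 4 bases), TGANTCA (AP-1), GATAA (GATA factors), GAGGAA (PU.1), or the IRF letters (GAAA and GAAA with a gap of 2 bases).
Il9, chr13:56482258-56482507: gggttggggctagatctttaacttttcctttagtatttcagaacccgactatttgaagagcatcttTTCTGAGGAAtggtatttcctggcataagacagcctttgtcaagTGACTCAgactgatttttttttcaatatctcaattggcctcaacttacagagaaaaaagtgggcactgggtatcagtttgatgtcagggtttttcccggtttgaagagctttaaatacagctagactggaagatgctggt
Il21, chr3:37232637-37232886: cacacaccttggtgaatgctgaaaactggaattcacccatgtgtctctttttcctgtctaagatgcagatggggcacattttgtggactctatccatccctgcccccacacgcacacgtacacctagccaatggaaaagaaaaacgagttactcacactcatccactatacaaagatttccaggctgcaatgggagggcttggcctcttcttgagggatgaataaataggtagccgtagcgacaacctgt
Il13, chr11:53634703-53634952: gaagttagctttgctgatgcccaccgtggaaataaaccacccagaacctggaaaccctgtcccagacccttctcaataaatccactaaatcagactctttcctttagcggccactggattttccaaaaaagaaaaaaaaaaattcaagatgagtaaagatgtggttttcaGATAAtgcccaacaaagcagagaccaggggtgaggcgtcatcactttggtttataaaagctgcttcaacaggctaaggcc
Il4, chr11:53618666-53618915: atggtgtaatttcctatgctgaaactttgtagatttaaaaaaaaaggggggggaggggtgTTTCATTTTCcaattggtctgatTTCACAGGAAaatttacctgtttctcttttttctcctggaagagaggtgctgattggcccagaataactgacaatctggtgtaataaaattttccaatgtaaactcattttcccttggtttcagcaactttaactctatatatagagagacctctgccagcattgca

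The *Il9* sequence held the STAT letters with the 4-base gap at 184 bases before the start, overlapping GAGGAA at 180, and TGANTCA at 140. These STAT letters occur in 5.85% of the 32851 RefSeq promoters of this length, GAGGAA in 23.3%, and TGANTCA in 6.75%. The *Il4* sequence also held them, 167 bases before the start, and the IRF letters at 190, which occur in 2.98% of promoters. The STAT letters with the 3-base gap (7.02% of promoters) were in none of the 4 sequences. *Il13* held GATAA at 80 bases before the start (22.6% of promoters), and *Il21* held none of the letters in capitals. GGAAA, the core of NFAT sites, which is not in capitals, was found 3 times in *Il9*, 3 times in *Il21*, 4 times in *Il13*, and 5 times in *Il4*, and occurs in 55.6% of promoters. A match says only that these letters are in the window. Of the 10 genes, 8 were matched to a RefSeq promoter, and *Il4* to 2 starts, of which the one at the GENCODE boundary is shown. The 250 bases before the other *Il4* start held 0 matches to any of these letters. *Il10* and *Il24* were not.

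Values are FPKM, which are reads scaled by gene length and library size, so levels can be compared between genes. Between 36019740 and 43656682 reads per library lay on genes. Groups were compared with limma on log2(FPKM + 0.1) over the 13733 genes that averaged 0.1 FPKM or more, and log2 changes below are on that scale. A gene is said to have risen or fallen at a Benjamini-Hochberg adjusted p below 0.05, and is called changed where the fold was also at least 1.5. *Il9*, *Il4*, *Il5*, *Il13*, *Il10*, *Il21*, *Il24*, and *Csf2* passed the minimum, and *Il2* and *Il3* did not. The T cell list (8 genes, all at least 1 FPKM) summed to 792 to 798 FPKM per library with DMSO, 752 to 754 with EpA, 779 to 794 with fatostatin, and 741 to 745 with both. With EpA, 2 of its genes rose (*Cd2* by 0.25 and *Cd4* by 0.15) and 6 fell, from *Cd28* by 0.53 to *Cd5* by 0.15. Of all genes, 14.3% rose and 13.1% fell. With fatostatin, *Cd3g* and *Cd4* rose by 0.11 each and *Cd2* by 0.05, whereas *Cd28* fell by 0.31 and *Lck* by 0.16. When fatostatin was added to EpA, *Cd4* and *Cd2* rose by 0.06 each, and *Cd28* fell by 0.36 and *Lck* by 0.17. Of 9 markers of mast cells and basophils, other sources of type 2 cytokines, 0 reached a mean of 1 FPKM, and their sum was 1.21 to 2.59. The myeloid and dendritic cell lists also had 0 genes at 1 FPKM. Of 6 ILC2 markers, *Rora*, *Il17rb*, and *Gata3*, which T cells also express, reached it. So did *Cd79b* of 6 B cell markers and both CD8 T cell genes. The B cell list summed to 5.25 to 8.70 FPKM per library and the CD8 T cell list to 6.98 to 10.2. Singly, *Cd79b* had 4.66 to 7.43 FPKM, *Cd8b1* 6.40 to 8.61, and *Cd8a* 0.430 to 1.93. The ILC2 list summed to 58.0 to 62.0 with DMSO, 50.7 to 53.3 with EpA, 64.7 to 67.9 with fatostatin, and 56.3 to 58.5 with both. The NK cell list summed to 4.87 to 5.32 with DMSO, 2.61 to 3.22 with EpA, 3.66 to 4.06 with fatostatin, and 1.86 to 2.35 with both, with *Klrd1* the only gene at 1 FPKM. Of 24 tested markers of these other cell types, 2 rose and 8 fell with EpA, against 14.3% and 13.1% of all genes. The basophil gene *Mcpt8* rose by 0.90 (adjusted p = 0.0492; means of 0.355 and 0.771 FPKM) and the myeloid gene *Lyz2* by 1.07 (adjusted p = 0.00934; means of 0.0371 and 0.186 FPKM). Of the markers at 1 FPKM, *Klrd1* fell by 0.79 (adjusted p = 0.000196), *Cd8a* by 1.08 (adjusted p = 2.85e-05; means of 1.81 and 0.802 FPKM), *Il17rb* by 1.58 (adjusted p = 1.16e-08; means of 5.04 and 1.62 FPKM), and *Gata3* by 0.12 (adjusted p = 0.0440), whereas *Cd8b1* had a log2 change of -0.03 (adjusted p = 0.877). *Eomes*, *Cd79a*, *Xcr1*, and the ILC2 marker *Arg1* also fell, at means below 1 FPKM. With fatostatin, 3 of the 24 rose (*Lyz2* by 1.15, *Il17rb* by 0.22, and *Gata3* by 0.15) and 1 fell (*Klrd1* by 0.44), against 7.69% and 6.31% of all genes. With fatostatin added to EpA, 3 rose (*Cd79a* by 0.72, *Il17rb* by 0.30, and *Gata3* by 0.14) and 2 fell (*Cd8a* by 0.62 and *Klrd1* by 0.51), against 9.22% and 6.79% of all genes. With both compounds against fatostatin alone, 0 of the 24 rose and 6 fell, against 16.2% and 13.3% of all genes. With both compounds against DMSO, 2 rose and 5 fell, against 19.7% and 15.8% of all genes. In the latter, *Lyz2* rose by 1.27 and *Zbtb46* by 0.81, and those that fell included *Cd8a* by 1.70, *Klrd1* by 1.30, and *Il17rb* by 1.27. The part of these differences in the cytokine results was not tested. In bulk RNA, more cells that make a cytokine and more RNA per cell cannot be told apart.

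*Il9* showed the largest change of the 10 genes. Its FPKM were 51.0, 57.7, and 55.1 in the DMSO libraries and 620, 652, and 648 in the EpA libraries. With fatostatin they were 67.9, 60.7, and 70.8, and with both compounds 805, 802, and 855. All 6 libraries with EpA lay far above all 6 without it, and the 3 libraries with both compounds lay above the 3 with EpA alone. *Il9* took 0.0192% of the summed FPKM with DMSO and 0.225% with EpA, and its rank among all genes moved from 907 to 45. With fatostatin the share was 0.0234% (rank 700), and with both compounds 0.29% (rank 30). The log2 change with EpA was 3.55 (SE 0.0566, adjusted p = 2.18e-11), a fold of 11.7 (95% interval 10.7 to 12.8). Fatostatin alone raised *Il9* by 0.28 (adjusted p = 0.00652), and added to EpA it raised *Il9* by 0.36 (adjusted p = 0.00132), both below 1.5-fold. From DMSO to both compounds the fold was 15 (95% interval 13.8 to 16.4).

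The 3 genes of the type 2 cluster did not move together. *Il4*, the cytokine that drives Th2 differentiation, had FPKM of 8.66, 9.12, and 8.34 with DMSO and 8.52, 8.98, and 8.83 with EpA. It had 7.57, 6.97, and 6.90 with fatostatin, and 8.40, 9.35, and 9.55 with both compounds. The DMSO and EpA libraries overlapped, and the 3 fatostatin libraries were below all others. Its log2 change with EpA was 0.01 (95% interval -0.11 to 0.13, adjusted p = 0.897). *Il4* fell by 0.28 with fatostatin (adjusted p = 0.00527) and was 0.34 higher with both compounds than with fatostatin alone (adjusted p = 0.000667).

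*Il13*, an effector cytokine of epithelial and mucus responses, stood next to *Il4* on the chromosome and near it in level with DMSO. Its FPKM were 8.86, 8.67, and 8.93 with DMSO and 15.6, 18.0, and 14.3 with EpA. They were 11, 11.7, and 10.6 with fatostatin and 21.5, 20.5, and 20.4 with both compounds. The 4 groups did not overlap, in the order DMSO, fatostatin, EpA, and both. *Il13* rose by 0.84 with EpA (SE 0.0679, adjusted p = 5.17e-06), a fold of 1.79, and by 0.33 with fatostatin (adjusted p = 0.00737). Fatostatin added to EpA raised it by 0.39 (adjusted p = 0.00270).

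*Il5*, the growth factor of eosinophils, was expressed at a low level of 33 to 107 reads per library. Its FPKM were 0.746, 0.653, and 0.494 with DMSO and 0.769, 0.637, and 0.907 with EpA. They were 1.01, 1.03, and 1.12 with fatostatin and 1.64, 1.41, and 1.68 with both compounds. The DMSO and EpA libraries overlapped, whereas every library with fatostatin was above every library without it. The log2 change with EpA was 0.26 (95% interval -0.07 to 0.58, adjusted p = 0.241). *Il5* rose with fatostatin by 0.67 (adjusted p = 0.0107), a fold of 1.60, and with fatostatin added to EpA by 0.95 (adjusted p = 0.00121). At this low level the fold depended on the pseudocount. With a pseudocount of 1, the log2 changes were 0.34 and 0.54, below 1.5-fold, and without DMSO replicate 3 the change with fatostatin was 0.53, also below 1.5-fold.

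The other 2 genes on chromosome 11 were near or at the limit of detection, as was *Il2*. *Csf2*, the gene of GM-CSF, had 3 to 7 reads per library with DMSO, 4 to 5 with EpA, 5 to 7 with fatostatin, and 0 to 9 with both compounds. The groups overlapped in all pairs, and its log2 change with EpA was 0.01, with a 95% interval from -0.89 to 0.91 (adjusted p = 0.987). *Csf2* did not pass in any comparison, but without replicate 3 of both compounds, which had 9 reads, the other 2 libraries had 0 and 2 reads, and the adjusted p was 0.0265 against fatostatin and 0.0422 against DMSO. *Il3*, a growth factor of basophils and mast cells, had 0 reads in 11 libraries and 2 reads in the library of both compounds, replicate 3. A count of 0 allows up to 3 fragments, or 6 reads where both mates are counted, which is 0.215 to 0.261 FPKM for this gene. *Il2*, the T cell growth factor, had 0 to 5 reads with DMSO, 0 to 2 with EpA, 2 to 7 with fatostatin, and 0 to 2 with both. Differences in *Il2* or *Il3* between groups were not detectable at this depth, and these limits cover counting error only.

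*Il10*, an anti-inflammatory cytokine that Th9 and Th2 cells can both make, moved in opposite directions with the 2 compounds. Its FPKM were 109, 111, and 110 with DMSO and 138, 137, and 134 with EpA. They were 51.8, 54.5, and 54.6 with fatostatin and 69.7, 71.3, and 72.6 with both compounds. The 4 groups did not overlap, and every library with fatostatin was below every library without it. *Il10* rose by 0.31 with EpA (SE 0.0237, adjusted p = 3.62e-06), below 1.5-fold. It fell by 1.04 with fatostatin (adjusted p = 2.89e-10), to a fold of 0.488, and by 0.94 when fatostatin was added to EpA (adjusted p = 1.33e-09). With both compounds it was below DMSO, by a log2 change of -0.63 (adjusted p = 7.07e-09).

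*Il24*, an IL-10 family cytokine on the same chromosome, had FPKM of 77.9, 76.2, and 77.4 with DMSO and 110, 110, and 106 with EpA. It had 62.1, 63.2, and 63.5 with fatostatin and 97.8, 101, and 96.0 with both compounds. The 4 groups did not overlap, and both groups with EpA were above both groups without it. *Il24* rose by 0.49 with EpA (adjusted p = 7.05e-08) and fell by 0.29 with fatostatin (adjusted p = 6.71e-06). Its directions were those of *Il10*, but with both compounds it was 0.35 above DMSO (adjusted p = 4.54e-07), where *Il10* was below.

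*Il21*, a common γ chain cytokine that helps B cells and CD8+ T cells, had FPKM of 1.15, 1.30, and 1.36 with DMSO and 3.48, 3.04, and 3.33 with EpA. It had 1.24, 1.03, and 1.18 with fatostatin and 4.10, 4.11, and 3.87 with both compounds. The DMSO and fatostatin libraries overlapped, and all libraries with EpA were above them. *Il21* rose by 1.31 with EpA (SE 0.0855, adjusted p = 1.13e-06), a fold of 2.47 (95% interval 2.17 to 2.82). The log2 change with fatostatin alone was -0.13 (adjusted p = 0.362). Fatostatin added to EpA gave 0.29 (adjusted p = 0.0411), which was above 0.05 without any 1 of the 6 libraries compared (0.0507 to 0.143).

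**Figure D1:**
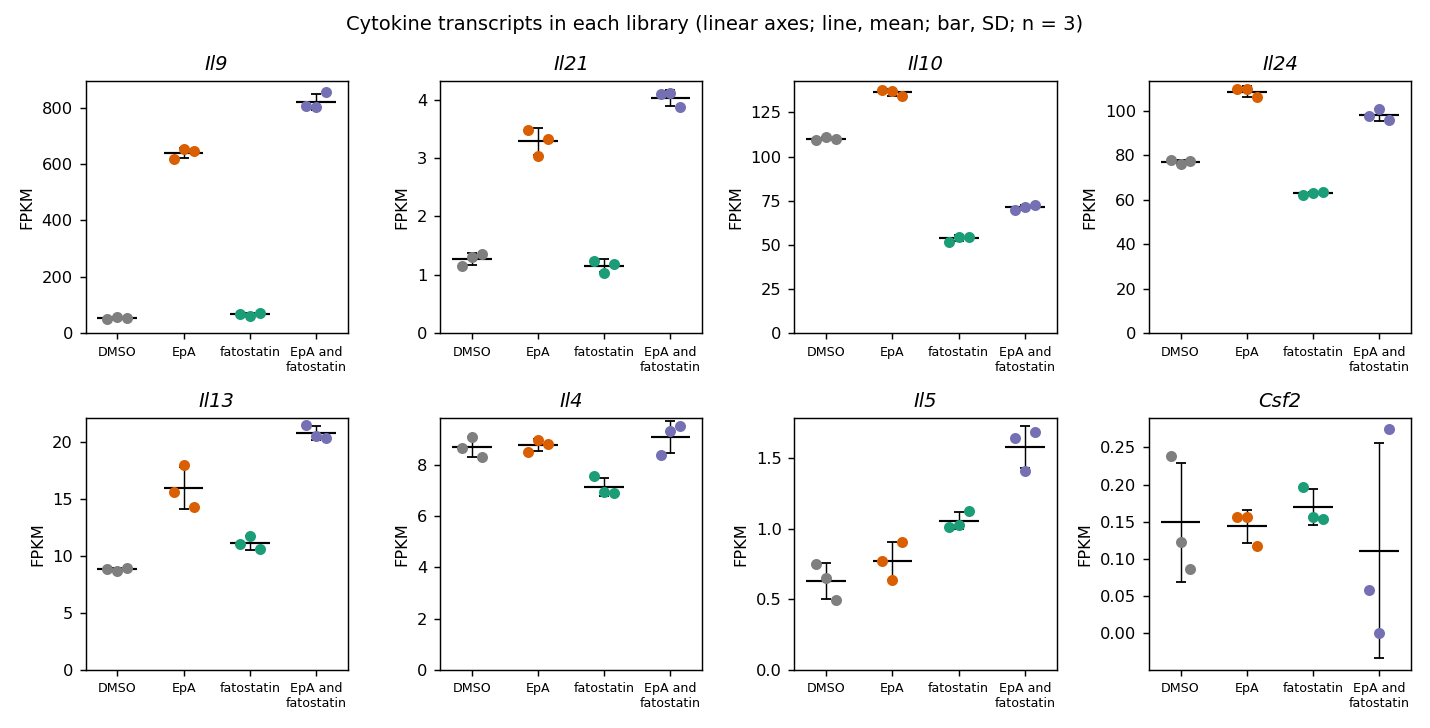
FPKM (linear axes, a scale for each gene) of the 8 tested cytokine genes in each library, by group. Points are libraries, lines are means, and bars are SD (n = 3). *Il9* and *Il21* separate by EpA, *Il10* separates by fatostatin, and *Il4* lies between 6.90 and 9.55 FPKM throughout.

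The order of the genes by level per length changed with the compounds. With DMSO, *Il10* was highest (110 ± 0.875 FPKM, SD, n = 3), followed by *Il24* (77.2 ± 0.829) and *Il9* (54.6 ± 3.38). *Il13* (8.82 ± 0.135) and *Il4* (8.71 ± 0.389) followed, and their libraries overlapped. With EpA, *Il9* stood first at 640 ± 17.5 FPKM, 4.69 times the level of *Il10*. *Il13* then exceeded *Il4* by a factor of 1.82, with no overlap. With fatostatin, *Il9* (66.5 ± 5.22) and *Il24* (63.0 ± 0.754) overlapped, and *Il10* came next at 53.7 ± 1.62. With both compounds, *Il9* (821 ± 29.7) was 8.35 times *Il24* (98.3 ± 2.60), and *Il10* followed (71.2 ± 1.45). *Il21* and *Il5* came after *Il4* in every group and overlapped only with fatostatin.

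The first question was which cytokine genes EpA changed in Th9 cells. Of the 8 tested genes, *Il9*, *Il21*, and *Il13* were called higher and 0 were called lower, against 3.38% of all tested genes called in either direction (1.44% higher and 1.94% lower). At any fold, 5 rose and 0 fell (*Il24* and *Il10* were added), against 27.4% of all genes in either direction (14.3% rose and 13.1% fell). The values of 5 of the 8 genes did not overlap between the groups, against 42.4% of all genes. The median log2 change of the 8 genes was 0.40, and that of all tested genes was 0.00. Of the cluster on chromosome 11, *Il13* alone rose, and *Il4*, *Il5*, and *Csf2* did not pass the test.

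The second question was which of these genes changed with fatostatin alone. *Il5* was called higher and *Il10* lower, against 1.86% of all genes in either direction (1.35% higher and 0.502% lower). At any fold, *Il9*, *Il13*, and *Il5* rose and *Il10*, *Il24*, and *Il4* fell, against 14.0% of all genes (7.69% rose and 6.31% fell). The groups did not overlap for 6 of the 8 genes, against 31.3% of all genes. The median log2 change was 0.01, both for the 8 genes and for all genes tested. The comparisons with EpA and with fatostatin share the DMSO libraries, so their values are given side by side and not related to each other. Within the type 2 cluster, *Il4* fell, whereas *Il13* and *Il5* rose.

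Fatostatin added to EpA was compared with EpA alone. *Il5* was called higher and *Il10* lower, against 1.99% of all genes (1.51% higher and 0.481% lower). At any fold, 4 genes rose (*Il5*, *Il13*, *Il9*, and *Il21*) and 2 fell (*Il10* and *Il24*), against 16.0% of all genes (9.22% rose and 6.79% fell). The groups did not overlap for 6 of the 8 genes, against 33.3% of all genes. *Il4* had a log2 change of 0.05 (95% interval -0.07 to 0.17, adjusted p = 0.611). EpA added to fatostatin, compared with fatostatin alone, gave 4 genes called higher and 0 lower, against 3.75% of all genes (1.89% higher and 1.86% lower). These were *Il9* (3.63), *Il21* (1.73), *Il13* (0.90), and *Il24* (0.64). *Il5*, *Il10*, and *Il4* also rose, by 0.54, 0.41, and 0.34, so that 7 of the 8 genes rose at any fold, against 29.5% of all genes (16.2% rose and 13.3% fell), and 7 of the 8 did not overlap, against 41.4% of all genes. For *Il5* the adjusted p was 0.0182, and it was above 0.05 without fatostatin replicate 1 (0.0544), fatostatin replicate 2 (0.0526), or replicate 1 (0.0546) or 3 (0.0636) of both compounds.

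Both compounds together, compared with DMSO, called 4 genes higher and 1 lower, against 5.64% of all genes (3.63% higher and 2.02% lower). At any fold, 5 rose and 1 fell, against 35.5% of all genes (19.7% and 15.8%), and 6 did not overlap, against 46.4% of all genes. *Il9* (3.91), *Il21* (1.60), *Il13* (1.23), and *Il5* (1.21) were higher, and *Il10* (-0.63) was lower. *Il4* was at 0.06 (95% interval -0.06 to 0.18, adjusted p = 0.428). The median log2 change of the 8 genes was 0.78, beside 0.02 for all genes.

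**Figure D2:**
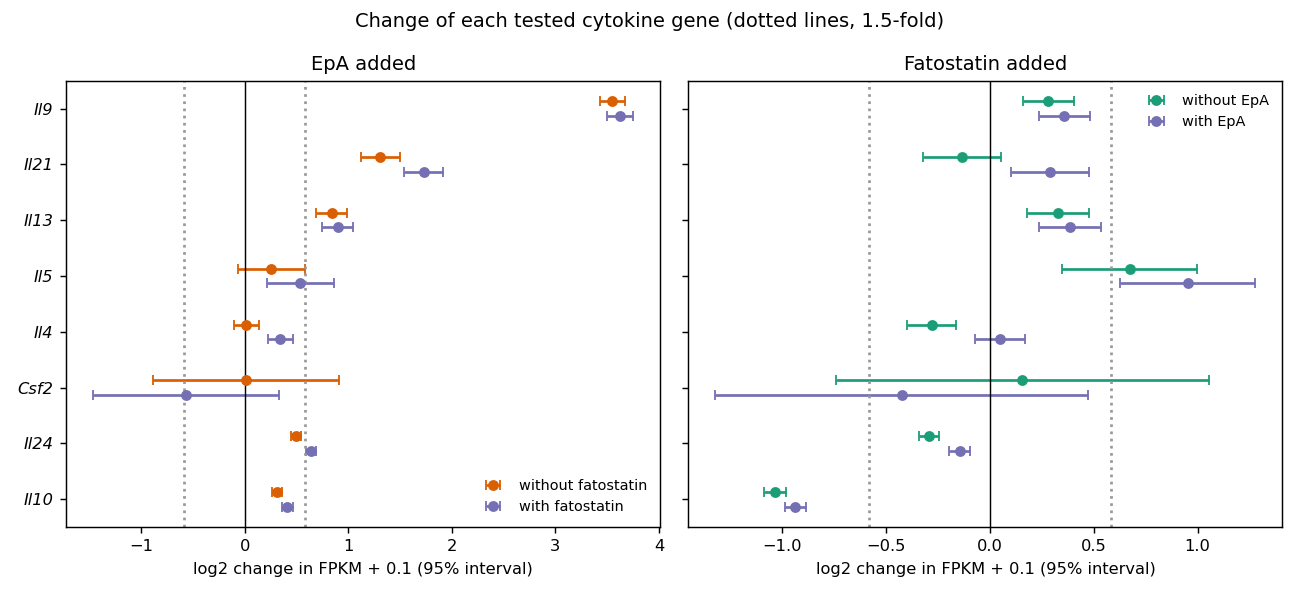
Log2 change in FPKM + 0.1 of the 8 tested genes when EpA is added (left, with and without fatostatin) or fatostatin is added (right, with and without EpA). Points are limma estimates, bars are 95% intervals, and dotted lines mark 1.5-fold. *Il9* stands at 3.55 and 3.63 on the left, and *Il10* at -1.04 and -0.94 on the right.

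Whether EpA acted differently in the presence of fatostatin was tested as the difference between its effects. Of the 8 genes, 0 passed an adjusted p below 0.05 in limma, against 0.0437% of all genes (6 of 13733, with 0.0364% higher and 0.00728% lower, of which 0 were called at 1.5-fold). At an unadjusted p below 0.05, 4 of the 8 passed, against 7.89% of all genes, each with a larger log2 change with fatostatin. These were *Il24* (difference 0.15, adjusted p = 0.272), *Il4* (0.33, adjusted p = 0.305), *Il21* (0.42, adjusted p = 0.369), and *Il10* (0.10, adjusted p = 0.474). For *Il9* the difference was 0.08, with a 95% interval from -0.10 to 0.25, and for *Il13* it was 0.06 (-0.16 to 0.27). So *Il4*, which did not pass with EpA in the absence of fatostatin and rose in its presence, was not shown to differ between these settings after adjustment.

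The genes on chromosome 11 were compared with *Il9* and *Il10* by ratios within each library. The *Il9* to *Il4* ratio was 5.83 to 6.54 with DMSO, 71.8 to 72.5 with EpA, 8.59 to 10.1 with fatostatin, and 84.9 to 94.7 with both. The *Il9* to *Il13* ratio was 5.70 to 6.59 with DMSO, 36.1 to 45.0 with EpA, 5.13 to 6.63 with fatostatin, and 37.3 to 41.8 with both. The former shifted with fatostatin as well as with EpA, whereas the latter separated only by EpA, with overlap between the groups with and without fatostatin. Between libraries with and without EpA, the log2 ratio of *Il9* to *Il4* differed by 3.41, to *Il5* by 3.19, to *Il13* by 2.72, and to *Il10* by 3.23. Each had p = 0.005 in a two-sided exact permutation test within fatostatin strata (400 arrangements, of which 0.005 is the smallest p, and an adjusted p of 0.00786 over 11 ratios). *Il9* thus rose relative to each of these genes in 6 of 6 libraries with EpA.

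*Il10* moved differently against the 2 neighbors. The *Il10* to *Il13* ratio was 12.2 to 12.7 with DMSO, 7.61 to 9.34 with EpA, 4.61 to 5.12 with fatostatin, and 3.24 to 3.56 with both. It fell by 0.51 on the log2 scale with EpA (exact permutation p = 0.005, adjusted 0.00786). The *Il10* to *Il4* ratio was 12 to 13.1 with DMSO, 15 to 16 with EpA, 6.77 to 7.82 with fatostatin, and 7.54 to 8.22 with both. Its shift of 0.18 had an exact permutation p of 0.03 (adjusted 0.0413), with overlap between the libraries with fatostatin and those with both compounds, and the p was 0.055 without fatostatin replicate 1 and 0.05 without replicate 1 of both compounds. The *Il10* to *Il5* ratio differed by -0.04 (exact permutation p = 0.725). Ratios to *Il3* and *Csf2* rest on values near 0 reads and follow the pseudocount.

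**Figure D3:**
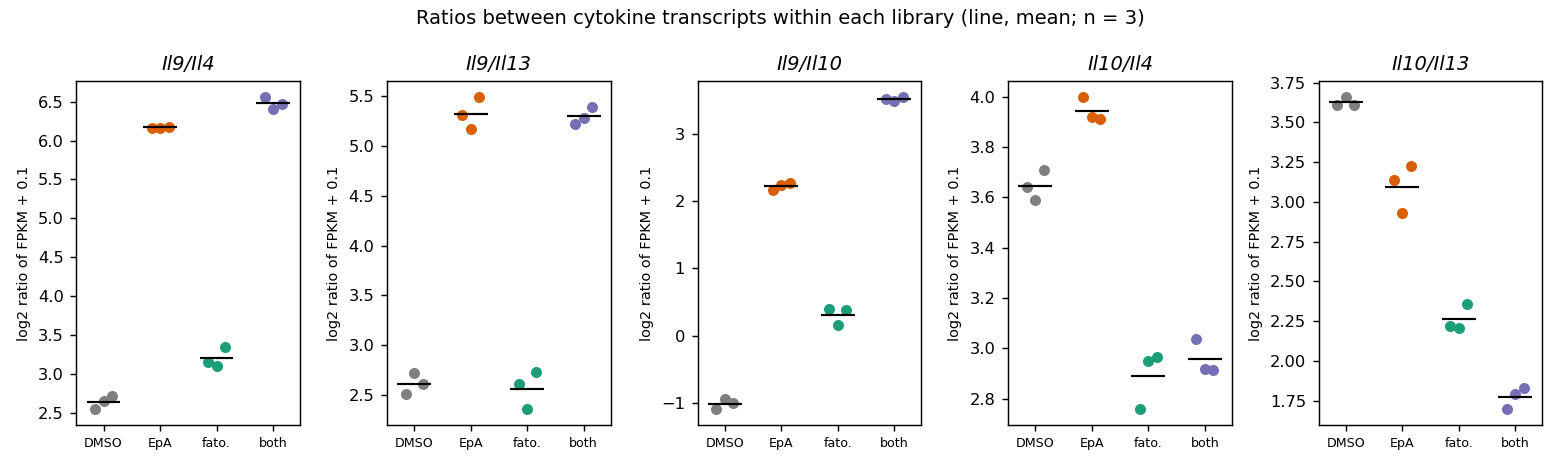
Log2 ratios of FPKM + 0.1 between pairs of cytokine transcripts within each library, by group (fato., fatostatin), on axes with different ranges that do not start at 0. Points are libraries and lines are means (n = 3). The 3 ratios with *Il9* are higher in all 6 libraries with EpA, and the ratio of *Il10* to *Il13* is lowest with both compounds.

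Genes next to the cytokine genes were examined to place these changes along the chromosome. Of the 20 listed neighbors on chromosome 11, 14 were tested, and with EpA 3 rose and 5 fell, with log2 changes from -0.41 to 0.53 and 0 called. Their median was -0.06, beside 0.00 for all genes, of which 14.3% rose, 13.1% fell, and 3.38% were called. *Rad50*, the DNA repair gene between *Il13* and *Il5*, had a log2 change of 0.05 with EpA (adjusted p = 0.402) and 0.09 with fatostatin (adjusted p = 0.185). *Kif3a*, a motor protein gene beside *Il4*, had 0.12 (adjusted p = 0.0795) and -0.07 (adjusted p = 0.401). Both values with EpA were below the 95% interval of *Il13*, which was 0.69 to 0.99. *Irf1*, an interferon-induced transcription factor on the far side of *Il5*, fell by 0.32 with EpA (adjusted p = 4.47e-05) and rose by 0.18 with fatostatin (adjusted p = 0.00432). *P4ha2*, a collagen prolyl hydroxylase gene, rose by 0.53 (adjusted p = 0.000554), *Zcchc10* by 0.23, and *Septin8* by 0.17, whereas *Rapgef6* fell by 0.41.

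On chromosome 1, 7 of 10 neighbors of *Il10* and *Il24* were tested, and 3 rose and 3 fell with EpA, beside the same shares of all genes (14.3% and 13.1%). *Il19*, an IL-10 family cytokine between *Il24* and *Il10*, had means of 1.51 ± 0.149 FPKM with DMSO and 1.08 ± 0.0996 with EpA (SD, n = 3). It had 0.996 ± 0.137 with fatostatin. *Il19* fell by 0.45 with EpA (adjusted p = 0.0130), where *Il24* and *Il10* rose, and by 0.56 with fatostatin (adjusted p = 0.00725). *Ikbke*, an inflammatory kinase gene, fell by 0.25 with EpA and was called higher with fatostatin (0.64, adjusted p = 1.22e-06), where *Il10* fell. *Mapkapk2*, *Dyrk3*, and *Eif2d* rose with EpA by 0.27, 0.50, and 0.13, and *Rassf5* fell by 0.23.

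Near *Il9*, 2 of 6 listed neighbors were tested. *Fbxl21*, an F-box protein gene on the opposite strand 40225 bp from *Il9*, had 0.0798, 0.0919, and 0.201 FPKM with DMSO and 1.02, 0.811, and 0.842 with EpA. It had 0.132, 0.0994, and 0.0824 with fatostatin and 0.839, 0.752, and 0.590 with both compounds. The libraries with EpA (116 to 195 reads) did not overlap those without it (14 to 42 reads). *Fbxl21* was called higher with EpA (2.18, SE 0.215, adjusted p = 2.33e-05) and with EpA added to fatostatin (2.01, adjusted p = 3.70e-05). *Smad5*, a mediator of BMP signals, had 0.08 with EpA (adjusted p = 0.430) and rose by 0.28 with fatostatin (adjusted p = 0.0127). Around *Il21*, 7 of 8 neighbors were tested, 3 rose with EpA (*Afg2a* by 0.33, *Cetn4* by 0.24, and *Bbs12* by 0.14), 0 fell, and 0 were called, beside 14.3%, 13.1%, and 3.38% of all genes.

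**Figure D4:**
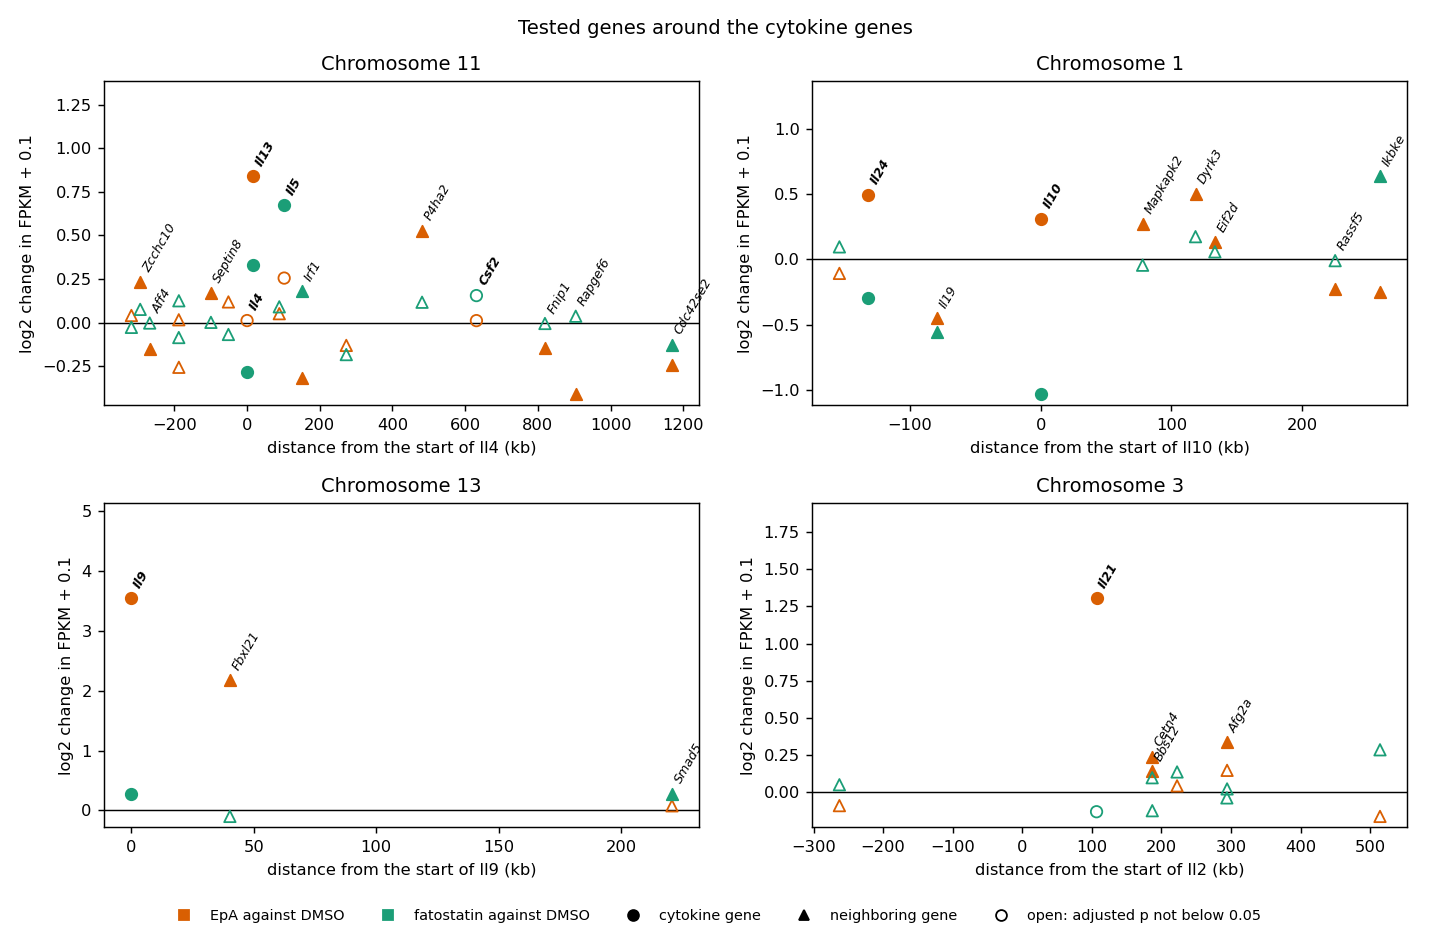
Log2 change in FPKM + 0.1 of tested cytokine genes (circles) and their neighbors (triangles) against the distance in kb between gene starts, for EpA against DMSO and fatostatin against DMSO, with a different vertical range in each panel. Filled symbols have an adjusted p below 0.05, and neighbors filled in neither comparison are not named. *Il13* (0.84) and *Il9* (3.55) exceed all their plotted neighbors with EpA, and *Il10* (-1.04) is the lowest point of its panel.

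Receptor genes of these cytokines rose and fell with EpA. Of 18 listed receptor genes, 13 were tested, and with EpA 4 rose and 3 fell, against 14.3% of all genes that rose and 13.1% that fell at any fold. The list median was 0.05. *Il9r*, the receptor chain for IL-9, fell by 1.11 (adjusted p = 1.59e-05), from 1.41 ± 0.0638 to 0.599 ± 0.0388 FPKM (SD, n = 3), and *Il4ra*, the chain shared by IL-4 and IL-13, fell by 0.34. *Il2rb*, a chain of the IL-2 receptor, fell by 0.14. *Csf2rb*, the β chain shared by the receptors of IL-3, IL-5, and GM-CSF, rose by 0.70 from 0.195 ± 0.0365 to 0.378 ± 0.0407 FPKM. *Il2ra*, the high-affinity chain for IL-2, rose by 0.34 from 693 ± 8.18 to 876 ± 1.44 FPKM, and *Il10ra* by 0.28. With fatostatin, 3 rose (*Il21r* by 0.19, *Il2rg* by 0.13, and *Il2ra* by 0.08) and 2 fell (*Il2rb* by 0.14 and *Il4ra* by 0.09), against 7.69% and 6.31% of all genes.

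Of 37 other cytokine genes, 22 were tested, and with EpA 8 rose and 3 fell, with a median of 0.05, against 14.3% of all genes that rose and 13.1% that fell. *Il1rn*, the IL-1 receptor antagonist, rose by 1.96 from 0.604 ± 0.0620 to 2.63 ± 0.218 FPKM, and *Lta*, the gene of lymphotoxin α, by 1.36 from 16.2 ± 0.563 to 41.8 ± 0.418 (SD, n = 3). *Il6* rose by 0.84 at a level of 0.203 ± 0.0264 FPKM with EpA (adjusted p = 0.0437). *Il16* fell by 0.37 and *Tgfb1* by 0.11, as did *Il19*, given above. With fatostatin, 4 rose and 4 fell, against 7.69% and 6.31% of all genes. *Il1a*, an alarmin, rose by 1.01, *Tnfsf11* (RANKL) by 0.44, and *Il12a* by 0.44, whereas *Il17f* fell by 0.56 (adjusted p = 0.0482) and *Osm* by 0.35.

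Of 43 transcription factors linked to these cytokine genes, 42 were tested, and with EpA 13 rose and 17 fell, with a median of -0.06, against 14.3% of all genes that rose and 13.1% that fell. *Id3*, an inhibitor of E proteins, fell by 0.99, *Eomes* by 0.90, and *Prdm1* (Blimp-1) by 0.70. *Eomes* is also among the NK cell markers listed. *Fosl2*, an AP-1 subunit, rose by 0.66, and *Etv5*, an ETS factor, by 0.48. With fatostatin, 9 rose and 9 fell, against 7.69% and 6.31% of all genes. *Maf*, which encodes the bZIP factor c-Maf, fell by 0.49 from 16.7 ± 0.152 to 11.9 ± 0.179 FPKM (adjusted p = 5.12e-07). *Id3* fell by 0.42 and *Ikzf3* by 0.37. *Smad3*, which carries TGF-β signals, rose by 0.54, *Gfi1*, a transcriptional repressor that promotes Th2 cell expansion, by 0.48, and *Tbx21* (T-bet) by 0.33.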

How the data were processed

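RNA-seq was performed on Th9 cells in 4 groups of 3 replicates. Per the study's methods, paired-end reads were trimmed (Trim Galore), mapped by HISAT2 to the GRCm38 genome, and summed per gene by featureCounts, and the authors deposited FPKM made from these. The annotation release and the use of strand are not given in the sources used here. The table had 32352 lines for 32051 genes, and 301 repeated lines with the same values were dropped. With GENCODE M21 exon lengths (99.9% of genes), 98.4% to 98.6% of values per library were whole reads within 0.05 read. Mates appear to be counted separately, so reads overstate fragments.

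In R 4.3.3, limma 3.58.1 was fitted to log2(FPKM + 0.1) for 13733 genes that averaged 0.1 FPKM or more, with 4 group means, an intensity trend, and Benjamini-Hochberg adjustment over all tested genes. Tests are two-sided. A count test was replaced because FPKM are not counts. A count of 0 was taken to allow up to 3 fragments, or 6 reads. With 3 against 3, an exact permutation test cannot give a p below 0.1. The script was checked on simulated data. The named genes were the 10 cytokine genes, up to 3 genes in each direction with the largest change at an adjusted p below 0.05 in each list (EpA or fatostatin against DMSO), genes next to the cytokine genes, and the 3 genes with at least 1 FPKM most like *Il9*, *Il10*, *Il4*, or *Il13*. *Ccni*, listed as a neighbor, is not on chromosome 11 and was left out of the counts. The values of 1 other gene that the rule names are not reported here. The genes and lists were chosen with earlier results of these data known. Alternatives changed the pseudocount, minimum, scaling, groups, trend, block, fold, read model (voom), and libraries. Sequences are from RefSeq (GRCm38.p6).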

Additional observations from a re-analysis of the deposited data

How the results depend on the processing

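For single genes, 776 alternative values kept their direction and side of the threshold, 11 changed sign, 13 lost and 2 gained an adjusted p below 0.05. Without a fold threshold or at 1.2-fold, the number of the 8 genes called was 5 for EpA against DMSO, 6 for fatostatin against DMSO, 5 (1.2-fold) or 6 (none) for both against EpA, and 7 for both against fatostatin. With a pseudocount of 1 it was 1 for fatostatin against DMSO and 1 for both against EpA (*Il5* lost in each). Leaving out each library gave 1 to 2 genes for fatostatin against DMSO. Replicate numbers did not pair the libraries (correlations of same-numbered libraries -0.05 to 0.07, with 0.1 required). With a replicate block, the adjusted p of *Il21* for both against EpA was 0.0600, and the log2 change of *Il9* with EpA remained 3.55. None of the single-gene changes that reversed had passed the test. Leaving out each library gave -0.017 to 0.046 for *Il4* with EpA (below 0 without DMSO replicate 3 or EpA replicate 2), and -0.020 to 0.14 for the difference of *Il13* (below 0 without EpA replicate 3). For *Csf2* it gave -0.17 to 0.26 with EpA, -0.031 to 0.40 with fatostatin, -0.95 to 0.0035 for both against EpA, and -0.94 to 0.016 for both against DMSO, and a pseudocount of 1 gave -0.0044 with EpA. The *Il10* ratios moved as follows. To *Il4*, leaving out each library gave 0.15 to 0.20. To *Il5*, it gave -0.096 to 0.035, and a pseudocount of 1 gave 0.13. To *Il3*, it gave 0.15 to 0.35, and pseudocounts of 1 and 0.01 gave 0.34 and -0.16. To *Csf2*, it gave 0.42 to 0.89, and a pseudocount of 1 gave 0.40. With 50 bases after the start included, the *Il4* sequence shown gained 1 GATAA match, and the other 3 shown gained none. The depth limits *Il3*, *Il2*, and *Csf2*, which had at most 9 reads in a library.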

Other observations

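Likeness to a cytokine gene was measured as the root mean square difference of log2(FPKM + 0.1), centered on each gene's mean, over the 12 libraries and 10298 genes that averaged 1 FPKM or more. The genes most like *Il9*, whose own root mean square was 1.80, were *Il1rn* (0.720), *Cldn4*, a tight junction gene (1.02), and *Il21* (1.05). *Cldn4* had means of 1.18 FPKM with DMSO, 3.59 with EpA, 1.42 with fatostatin, and 4.42 with both. For *Il10* (own root mean square 0.526) they were *Cldnd1* (0.0989), *Cpox*, a heme synthesis enzyme (0.114), and *Tiparp*, a target gene of the aryl hydrocarbon receptor (0.115). *Cpox* had 41.7, 47.0, 16.7, and 23.0 FPKM in the same order of groups, and *Tiparp* 11.5, 13.7, 6.17, and 6.70.

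For *Il13* (0.476) the nearest were *Tgm2*, a transglutaminase gene (0.0829), *Bhlhe40*, a transcription factor (0.117), and *Sdc4* (0.129). *Tgm2* had 14.5 FPKM with DMSO, 25.3 with EpA, 17.9 with fatostatin, and 34.3 with both, in the same order of groups as *Il13*. For *Il4* (0.147), which varied least, they were *Ccdc85b* (0.0648), *Plek* (0.0650), and the cell cycle inhibitor *Cdkn1b* (0.0694). These likenesses are descriptions over the 12 libraries, which share their groups.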
